A study of Mus musculus with 11 samples.

Results

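Exocrine genes were measured in RNA of whole pancreatic islets to see how much acinar and ductal RNA each library carried. The set of 35 genes, 26 of acinar cells and 9 of ductal cells, was chosen by name from textbook markers. Earlier results of these data were known when it was chosen. Its genes were looked up by Ensembl gene ID among the 19329 gene IDs of the deposited table. Of the 35 genes, 31 had a row. Among the 31, 2 (*Gp2* and *Zg16*) were listed at 0 in every PDX1 P33T library, and 29 were measured there, 20 acinar and 9 ductal. *Prss1*, *Ctrc*, *Ptf1a* and *Rbpjl* had no row. The deposited table kept genes with a value in enough replicates of one condition. Of its gene IDs, 366 were at 0 in every PDX1 P33T library and 18963 had a value in at least 4 of 5. A gene read in fewer of these libraries may thus be listed at 0 or have no row, so neither shows that RNA was absent.

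The islets came from 14-week-old chow-fed male mice on a C57BL/6N background. PDX1 P33T mice were homozygous for a proline-to-threonine point mutation of the pancreatic transcription factor PDX1, made by CRISPR-Cas9, and wild-type mice are described as their littermates, although the methods also give homozygous intercrosses as the source of the cohorts. Islets of both groups were kept in culture after isolation, and no mouse was treated. Bulk RNA-sequencing gave 6 wild-type and 5 PDX1 P33T libraries. By a figure legend of the study, a library may pool several mice, so n counts libraries and every p-value below measures the spread between libraries only. The mutation is in the germline, so acinar and ductal cells carried it as well as islet cells.

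Acinar cells make up most of the pancreas and store digestive enzymes as inactive precursors in zymogen granules, which they release into the ducts. The ductal epithelium carries the juice to the gut and adds bicarbonate. Islets lie within this exocrine tissue and are freed from it by enzymatic digestion, so islet preparations usually hold some exocrine cells or exocrine RNA. In bulk RNA, fewer cells of a type and less RNA per cell cannot be told apart. Several genes used as ductal markers, such as *Krt18*, *Epcam* and *Krt7*, are also transcribed in other epithelial or endocrine cells, so they are not specific to ducts.

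Values were FPKM (reads scaled by gene length and by the library's counted reads). The PDX1 P33T libraries held 23731684 to 36865206 counted reads and the wild-type libraries 19311937 to 37094286. *Ins1* and *Ins2*, the insulin genes that define the beta cell, took 43.5% to 48.8% of the summed FPKM of the PDX1 P33T libraries. Replicate 2 of PDX1 P33T stood apart across the table. Among the 14029 genes with at least 100 reads over the 5 libraries, it was the highest library for 38.4% and the lowest for 37%, and its Pearson correlation with the other libraries across genes was 0.974 to 0.980 against 0.987 to 0.990 among the others. It is therefore given apart from the other 4 libraries throughout. The wild-type values stood on the rows of other genes for most genes, and only 7 members had a wild-type row that could be identified. The account of the members thus rests first on the PDX1 P33T libraries.

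Upstream sequences of 5 enzyme genes are shown, 3 that hold a motif of acinar promoters and 2 that do not. All but *Rnase1* stood several-fold higher in 1 library than in the others, *Pnliprp1* among them. Each is the 250 bases before the transcription start in RefSeq on GRCm38.p6, read 5′ to 3′ on the gene's strand. Capitals mark the E-box CACCTG or the sequence TTTCCCA on either strand, both parts of the kind of element that the acinar factor PTF1 is known to bind. *Prss2* lies at chr6:41521526-41521775, plus strand, *Cela2a* at chr4:141826006-141826255, minus strand, *Cela1* at chr15:100687921-100688170, minus strand, *Pnliprp1* at chr19:58728637-58728886, plus strand and *Rnase1* at chr14:51146768-51147017, minus strand.
Prss2: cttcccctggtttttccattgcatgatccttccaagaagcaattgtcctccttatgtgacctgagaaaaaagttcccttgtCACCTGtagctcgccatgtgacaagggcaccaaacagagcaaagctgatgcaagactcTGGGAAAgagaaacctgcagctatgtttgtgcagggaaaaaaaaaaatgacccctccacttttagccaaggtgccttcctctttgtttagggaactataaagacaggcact
Cela2a: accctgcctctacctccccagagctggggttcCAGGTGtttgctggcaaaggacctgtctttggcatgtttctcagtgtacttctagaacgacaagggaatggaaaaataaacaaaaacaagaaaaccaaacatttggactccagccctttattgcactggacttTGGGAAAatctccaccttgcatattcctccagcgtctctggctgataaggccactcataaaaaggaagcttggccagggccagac
Cela1: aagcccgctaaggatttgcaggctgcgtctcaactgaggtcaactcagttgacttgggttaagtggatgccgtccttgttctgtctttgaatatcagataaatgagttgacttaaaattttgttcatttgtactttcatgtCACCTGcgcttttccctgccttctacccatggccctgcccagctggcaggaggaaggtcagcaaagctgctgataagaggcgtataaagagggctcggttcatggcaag
Pnliprp1: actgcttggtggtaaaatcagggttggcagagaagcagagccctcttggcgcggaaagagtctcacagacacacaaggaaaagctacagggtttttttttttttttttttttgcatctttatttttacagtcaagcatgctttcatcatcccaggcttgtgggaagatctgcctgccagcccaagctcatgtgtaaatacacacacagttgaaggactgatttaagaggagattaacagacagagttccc
Rnase1: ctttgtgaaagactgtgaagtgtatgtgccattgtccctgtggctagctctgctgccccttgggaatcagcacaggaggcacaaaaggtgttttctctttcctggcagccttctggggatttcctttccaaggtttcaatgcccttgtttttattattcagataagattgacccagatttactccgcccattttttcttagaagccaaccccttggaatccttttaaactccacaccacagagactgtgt
A window was found for 22 of the 26 acinar genes. CACCTG was present in 11 of these 22 windows (50%) against 17.2% of 32851 windows of all genes. TTTCCCA was present in 6 (27.3%) against 6.82%. Both occurred in 3, those of *Prss2*, *Cela2a* and *Cel*, against 1.17% of all windows. Of 7 windows of 6 ductal genes, 5 held CACCTG and 0 held TTTCCCA. The motifs do not overlap each other's letters in these windows, and a match describes the letters only. A window was present for 18 measured acinar genes. Of these, 11 of 12 with a motif and 5 of 6 with neither were highest in PDX1 P33T replicate 2, described below. Of them, 11 and 2 were at least 2-fold above every other library. Among all genes with at least 100 reads these shares were 38.4% and 1.2%. The member counts used no read minimum. *Amy2a5*, *Pla2g1b* and *Sycn*, with neither motif, had 18, 32 and 71 reads, and *Cel* and *Reg1*, with a motif, 89 and 65. *Prss2*, *Cpb1*, *Cpa1* and *Ctrl*, with a motif, and *Pnliprp1*, with neither, passed 100 reads only through replicate 2. The contrast of the 2 groups thus carries no weight. *Bhlha15* holds an E-box and was lowest in that library, while *Pnlip* and *Pnliprp1* hold neither motif and were highest. No link between motif and level was tested.

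Secreted enzymes were present at low levels in every PDX1 P33T library and at several times that level in replicate 2. The 17 measured enzymes, colipase included, summed to 26.1, 150.1, 13, 27.2 and 14.7 FPKM in replicates 1 to 5. Replicate 2 was 7.36-fold above the median of the other 4 libraries, which averaged 20.2 ± 7.42 FPKM (SD, n = 4). As a share of counted reads, the enzymes took 0.00389% (Wilson 95% interval 0.00367% to 0.00414%) in replicate 1 and 0.0208% (0.0202% to 0.0214%) in replicate 2. The share was 0.00193% (0.00179% to 0.00209%) in replicate 3, 0.00394% (0.0037% to 0.0042%) in replicate 4 and 0.00224% (0.00209% to 0.0024%) in replicate 5. These intervals cover counting error only, and those of replicates 1 and 4 overlapped. Even in replicate 2 the enzymes made up 0.0247% of the summed FPKM.

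**Figure D1:**
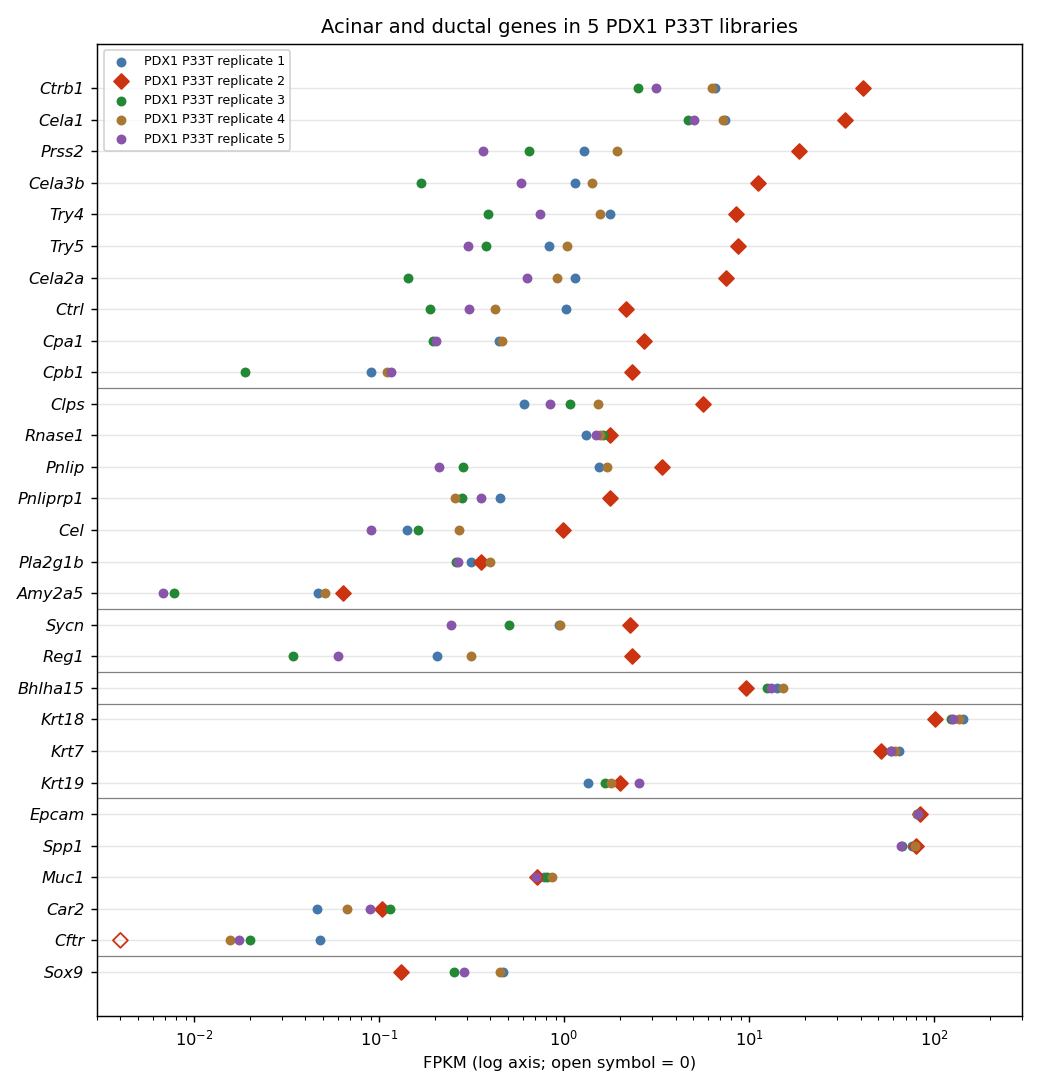
FPKM on a log axis of the 29 measured genes, 1 symbol per PDX1 P33T library, grouped by role from proteases at the top to the ductal transcription factor at the bottom. Red diamonds are replicate 2, which lies to the right of the other libraries for 16 of the 17 enzymes, and the open diamond marks *Cftr*, at 0 in that library.

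The proteases led this pattern. Chymotrypsinogen B1 (*Ctrb1*) stood at 6.52, 41.5, 2.51, 6.29 and 3.15 FPKM in replicates 1 to 5, from 71 to 865 reads. The elastase gene *Cela1* stood at 7.42, 32.9, 4.67, 7.24 and 5.06 FPKM. Both were highest in replicate 2, by 6.36-fold and 4.44-fold over the next library. In the other 4 libraries *Ctrb1* ranged from 2.51 to 6.52 FPKM and *Cela1* from 4.67 to 7.42 FPKM. The anionic trypsinogen gene *Prss2* measured 1.28, 18.5, 0.647, 1.94 and 0.366 FPKM, and *Cela3b*, another elastase, measured 1.14, 11.2, 0.168, 1.41 and 0.587 FPKM. *Cpb1*, which encodes procarboxypeptidase B1, had the widest range of all members, with 0.0906, 2.34, 0.0189, 0.111 and 0.116 FPKM. The lowest of those values rests on 2 reads. The other proteases, *Try4*, *Try5*, *Cela2a*, *Cpa1* and *Ctrl*, were also highest in replicate 2, at 8.52, 8.74, 7.51, 2.7 and 2.15 FPKM. Thus all 10 measured proteases were highest in the same library.

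The trypsinogen genes are similar copies, *Try4* and *Try5* the most alike of those compared, and reads may have been split among them. Across their longest annotated transcripts (GENCODE vM21, GRCm38), *Try4* and *Try5* were identical at 97.1% of aligned positions, *Prss2* and *Try4* at 89.8%, and *Prss1*, which had no row, and *Try4* at 92.1%. The single values of *Prss2*, *Try4* and *Try5* are therefore uncertain. The trypsinogen-like gene *2210010C04Rik*, which is not a member and was picked after its values were seen, aligned to them at 75.2% to 76.7% and stood at 0.295, 4.09, 0.217, 0.455 and 0.076 FPKM.

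Among the enzymes of starch, fat and nucleic acid digestion, colipase and the lipases followed the proteases, while ribonuclease and phospholipase did not. Colipase (*Clps*), the cofactor of pancreatic lipase, stood at 0.609, 5.66, 1.07, 1.53 and 0.844 FPKM. Pancreatic lipase (*Pnlip*) stood at 1.54, 3.38, 0.283, 1.7 and 0.21 FPKM, and its relative *Pnliprp1* at 0.452, 1.78, 0.279, 0.256 and 0.354 FPKM. Replicate 2 was the highest for each of them, although for *Pnlip* the next library reached within 1.99-fold. Bile-salt-dependent lipase (*Cel*), with 89 reads in all, was at 0.981 FPKM in replicate 2 and at 0.0902 to 0.27 FPKM elsewhere.

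Pancreatic ribonuclease (*Rnase1*) measured 1.31, 1.78, 1.63, 1.56 and 1.48 FPKM, a mean of 1.55 ± 0.175 (SD, n = 5). It was highest in replicate 2 by 1.1-fold only, the smallest excess among the enzymes that peaked there. *Pla2g1b*, a secreted phospholipase, ranged from 0.261 to 0.399 FPKM on 6 or 7 reads per library, and replicate 2 was not its highest library. Pancreatic amylase *Amy2a5* had 18 reads in all and at most 0.0636 FPKM. Its copy *Amy2a1*, which is not a member, was 99.9% identical to it over the 890 bases of the *Amy2a1* transcript and stood at 0.167, 6.58, 0.279, 0.867 and 0 FPKM. The value of *Amy2a5* is uncertain for that reason and does not give the level of amylase RNA.

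The share of each enzyme in the enzyme total was also compared between libraries. *Ctrb1* made up 19.3% to 27.7% of the enzyme FPKM and *Cela1* 21.9% to 35.9%. *Prss2* made up 12.3% in replicate 2 and 2.49% to 7.15% in the other libraries, and *Rnase1* 1.19% against 5.03% to 12.5%. *Cpa1*, procarboxypeptidase A1, kept to 1.37% to 1.8% in all 5 libraries.

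Acinar secretory proteins and transcription factors divided. Syncollin (*Sycn*), a zymogen granule protein, stood at 0.936, 2.27, 0.502, 0.949 and 0.244 FPKM, and the secreted lectin gene *Reg1* at 0.206, 2.33, 0.0343, 0.314 and 0.06 FPKM. Both peaked in replicate 2, on 30 and 50 reads. *Bhlha15*, the transcription factor MIST1 of secretory cells, ran the other way, with 14.1, 9.64, 12.5, 15.2 and 13.1 FPKM and its lowest value in replicate 2. *Gp2*, the main membrane protein of the zymogen granule, and *Zg16*, a granule lectin, were listed at 0 in every PDX1 P33T library. Those zeros do not show that their RNA was absent, as a gene read in few libraries may be listed so.

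Ductal genes did not share the rise. The 9 ductal members summed to 367.0, 320.3, 333.0, 361.7 and 336.7 FPKM, with the lowest sum in replicate 2. Keratin 18 (*Krt18*), a filament protein of simple epithelia, was the highest member of all at 142.8, 101.5, 123.7, 136.9 and 127.1 FPKM. Keratin 7 (*Krt7*) stood at 64.5, 51.9, 58.1, 61.8 and 58.2 FPKM, and both keratins were lowest in replicate 2. The epithelial adhesion molecule *Epcam* varied least, with 81.2, 84.1, 81.7, 81.1 and 81.3 FPKM and a coefficient of variation of 1.54%. Osteopontin (*Spp1*), a secreted phosphoprotein, stood at 75.9, 79.7, 66.7, 78.7 and 66.5 FPKM, where replicate 2 exceeded replicate 4 by 1.01-fold.

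The more restricted ductal genes were low. Keratin 19 (*Krt19*) stood at 1.34, 2.0, 1.67, 1.79 and 2.53 FPKM, and the mucin gene *Muc1* at 0.705 to 0.865 FPKM. *Sox9*, the transcription factor of the ductal lineage, measured 0.468, 0.132, 0.255, 0.452 and 0.289 FPKM, with its lowest value in replicate 2 on 13 reads. Carbonic anhydrase 2 (*Car2*) lay between 0.0461 and 0.115 FPKM, and the chloride channel *Cftr* had 23 reads in all and 0 in replicate 2. These values show low levels of the duct-restricted genes in every library, with no high library.

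The excess of replicate 2 was then set beside that of all genes. With a minimum of 100 reads over the other 4 libraries, a filter added after seeing the data that does not use replicate 2, 15 members remained among 13657 genes. Of these, 9 were highest in replicate 2, against 38.1% of all genes, and 4 were lowest, against 37.7%. All 5 members that were at least 2-fold above every other library, *Cela3b*, *Cela2a*, *Ctrb1*, *Try4* and *Cela1*, were also at least 3-fold above, against 1.05% and 0.103% of all genes. They were 5 of the 14 genes past 3-fold. The 5 were among 8 acinar members left by this filter, and 0 of 7 ductal members passed 2-fold.

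With the 100 reads counted over all 5 libraries, 22 members passed, but *Prss2*, *Try5*, *Ctrl*, *Cpa1*, *Cpb1*, *Pnliprp1* and *Clps* did so only through their reads in replicate 2, having 33 to 95 reads in the other libraries. For those 7 genes the filter itself favoured a high replicate 2, and the counts that follow carry no weight of their own. On that wider set 16 of 22 were highest in replicate 2 (38.4% of 14029 genes), 12 were at least 2-fold above every other library (1.2%) and 11 at least 3-fold (0.171%, 24 genes). At 2-fold, the other libraries had 3 (0.0214%), 0, 4 (0.0285%) and 0 such genes, for replicates 1, 3, 4 and 5. Not every enzyme stood high among genes ordered by this excess, with *Ctrl*, *Pnlip* and *Rnase1* at ranks 125, 181 and 4012. Replicate 2 was singled out after its values were seen, so all these counts are a description.

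**Figure D2:**
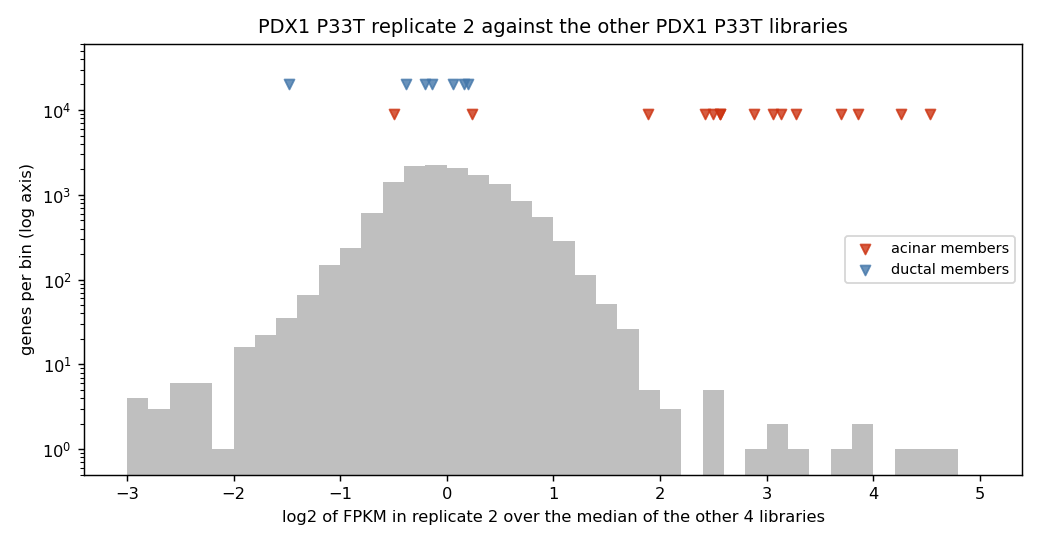
Histogram, with a log count axis, of the log2 ratio of FPKM in PDX1 P33T replicate 2 to the median of the other 4 libraries for 14029 genes, with values under -3 in the first bin. Triangles mark the 15 acinar (red) and 7 ductal (blue) members with at least 100 reads, 7 of which (all acinar) passed that minimum only through replicate 2. Most acinar members lie to the right of the bulk of genes, while *Rnase1*, *Bhlha15* and most ductal members lie within it and *Sox9* lies to the left.

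Among the remaining libraries a smaller step was seen. Replicates 1 and 4 both exceeded replicates 3 and 5 for 15 of the 20 measured acinar genes and for 4 of the 9 ductal genes. Of members with at least 100 reads, 15 of 22 did so, against 30% of all genes, and the reverse order held for 28.4% of all genes. No sample label groups the libraries in this way. The grouping was taken from these values, so the counts are a description. The enzyme sum of replicates 1 and 4 was 1.92-fold that of replicates 3 and 5, the widest such ratio among enzymes with at least 100 reads being that of *Pnlip*, 6.59-fold. The sum of the ductal members and the stromal, endothelial, macrophage and Schwann cell marker sums split the same way, while the endocrine sum did not split. The 5 stromal markers gave 3.35 and 3.37 FPKM in replicates 1 and 4 against 2.13 and 2.02 in replicates 3 and 5, and the 4 endothelial markers gave 117.6 and 122.8 against 90.1 and 89.3 FPKM. Replicates 1 and 4 were also the shallower, with 26887871 and 24627964 reads against 32253339 and 36865206. The lymphoid sum, over 2 measured genes, split the opposite way and more widely, with 0.832 and 0.794 FPKM against 3.85 and 3.87. The part of depth or of other cell types in this step was not tested.

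Markers of other cells were read beside replicate 2. Its endothelial sum, over *Pecam1*, *Cdh5*, *Kdr* and *Plvap*, was the lowest, 53.1 FPKM against 89.3 to 122.8, and all 4 genes were lowest there. The 7 endocrine markers summed to 360253.6 FPKM in replicate 2 and 264780.6 to 320996.7 elsewhere. The FPKM sum of all genes was also highest in replicate 2, at 607661.4 against 470113.3 to 535143.8. As a share of that sum, *Ins1* and *Ins2* took 45.5% in replicate 2 and 43.5% to 48.8% in the other libraries. Stromal, macrophage and Schwann cell sums of replicate 2 lay within the range of the others, at 2.19, 92.6 and 2.51 FPKM. Gene by gene, 3 of the 4 macrophage markers, 2 of the 5 stromal markers and 0 of the 3 Schwann cell markers were lowest there. Of 4 lymphoid markers 2 were measured, with 0.214 FPKM in replicate 2 and 0.794 to 3.87 elsewhere. The part of these differences in the enzyme levels was not tested.

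**Figure D3:**
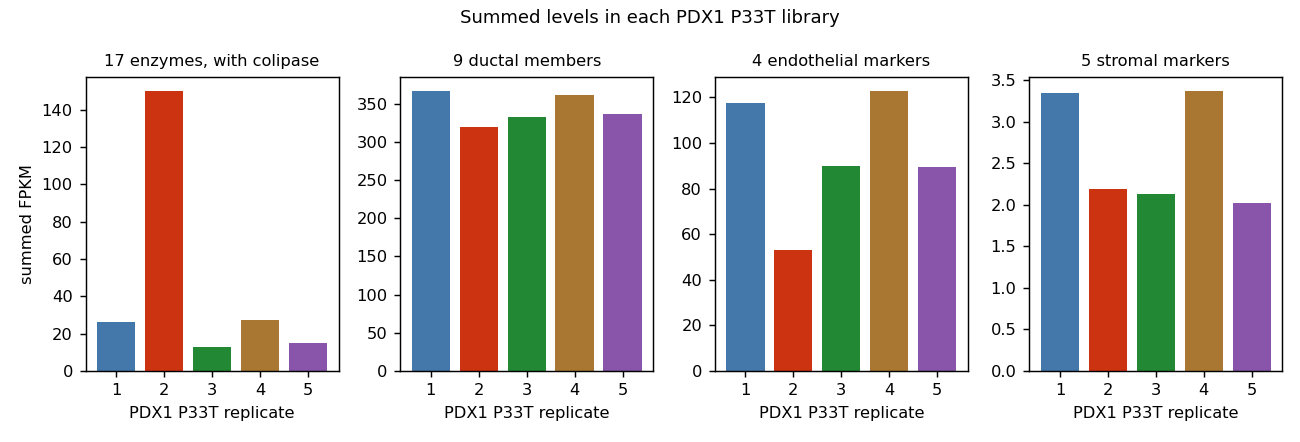
Summed FPKM of 4 gene lists in each of the 5 PDX1 P33T libraries, from a baseline of 0, with 1 bar per library. Replicate 2 has the tallest bar for the enzymes (150.1) and the shortest for the ductal members (320.3) and the endothelial markers (53.1).

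Other exocrine genes that are not members showed a narrower version of the same picture. Of 25 further acinar genes, 8 were measured, 3 were listed at 0 and 14 had no row, and 5 of the 8 were highest in replicate 2. Trefoil factor 2 (*Tff2*) stood at 0, 2.38, 0.106, 0.209 and 0.0929 FPKM and the kallikrein gene *Klk1* at 0.207, 1.53, 0.0288, 0.0377 and 0.0252 FPKM. *Rab3d*, a small GTPase of secretory granules, averaged 41.4 ± 2.34 FPKM (SD, n = 5) and was lowest in replicate 2. Of 27 further ductal genes, 22 were measured, 4 were highest and 15 lowest in replicate 2. The most abundant of these were keratin 8 (*Krt8*, 87.8 ± 7.66 FPKM), the tight junction gene *Cldn4* (79.5 ± 4.31), clusterin (*Clu*, 68.5 ± 10.2), the sodium pump subunit *Atp1b1* (44.7 ± 8.5) and *Cldn7* (43.7 ± 3.83), all over 5 libraries.

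Wild-type and PDX1 P33T libraries were then compared for the members whose wild-type row could be identified. A wild-type row was accepted for a gene by its recovered length and a mean level within 4-fold of the PDX1 P33T mean, so a larger difference could not have been seen in this way. Gene and row each needed at least 100 reads in total. *Clps* and *Cpb1*, with 73 and 33 reads in the other PDX1 P33T libraries, met that minimum only through replicate 2. Their rows were thus chosen with replicate 2 included, and their values without it are a description only. *Clps* and *Krt7* met the main rule and *Cpb1* and *Epcam* a looser one added after seeing the data. With a limma adjusted p threshold of 0.05 and a 1.5-fold minimum change, 0 members were called, against 0.0423% of 4726 genes called higher and 0.0423% called lower under the main rule, and 0.0598% in each direction of 6687 genes under the looser one. At an unadjusted limma p under 0.05 the count of members under the main rule was also 0 of 2, against 15.7% of genes higher and 18.3% lower. Under the looser rule these shares were 12.3% and 13.8%. The shares cover only genes with an identified row. Of the 4765 genes put back under the main rule, 1711 were placed through a supplementary table of the study. They need not hold for all genes, and 2 members are too few to set against them.

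*Clps* stood at 1.62, 4.29, 5.25, 1.99, 2.26 and 1.35 FPKM in wild-type replicates 1 to 6, beside the PDX1 P33T values given above. PDX1 P33T replicate 2 lay above every wild-type library, replicate 4 among them, and the other 3 below them all. On log2(FPKM + 0.1), the difference of PDX1 P33T from wild-type was -0.79 ± 0.5 (SE; limma adjusted p = 1; exact permutation p = 0.208). Without PDX1 P33T replicate 2 it was -1.28 ± 0.38, with an unadjusted limma p of 0.00638 and an adjusted p of 0.868. The other 4 PDX1 P33T libraries averaged 1.01 ± 0.392 FPKM (SD, n = 4) against 2.79 ± 1.59 (SD, n = 6) in wild-type, so a single library moved the size of this difference.

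*Cpb1* behaved likewise. Wild-type libraries held 0.209, 0.689, 0.142, 0.296, 0.642 and 0.171 FPKM, on 9 to 64 reads. The difference was -0.44 ± 0.66 (limma adjusted p = 1; exact permutation p = 0.606) and -1.19 ± 0.36 without PDX1 P33T replicate 2 (unadjusted limma p = 0.00755, adjusted p = 0.874). In that case the highest PDX1 P33T value, 0.116 FPKM, was under the lowest wild-type value, while replicate 2, at 2.34 FPKM, was over the highest. Without replicate 2 the PDX1 P33T mean was 0.0841 FPKM against 0.358 FPKM in wild-type, further apart than the 4-fold rule allows. The row was accepted only with replicate 2 in the mean, so no conclusion is drawn from this gap.

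Keratin 7 was at 61.7, 38.5, 49.8, 55.0, 58.2 and 60.7 FPKM in wild-type. The groups overlapped, and the difference was 0.14 ± 0.12 (limma adjusted p = 1; exact permutation p = 0.307). *Epcam* was at 80.5, 53.3, 68.7, 76.4, 73.8 and 81.0 FPKM in wild-type, and the lowest PDX1 P33T value, 81.1, was just above the highest wild-type value. Its difference of 0.19 ± 0.11 was not called (limma adjusted p = 0.694; exact permutation p = 0.026), and the smallest p of the exact test is 0.00216.

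For 3 more members a wild-type row of equal length was the only one within 2-fold in mean level. That rule chose a wrong row for 2 of 821 genes with a known row. It also gave 4 genes a row that belonged to another gene. The values of the 3 members are given without a test. *Cela1* stood at 8.69, 14.8, 6.96, 7.58, 9.08 and 3.66 FPKM, *Ctrl*, a chymotrypsin-like protease, at 0.631, 1.76, 0.985, 0.886, 1.14 and 0.454 FPKM, and *Spp1* at 53.0, 38.8, 121.2, 101.0, 95.8 and 96.7 FPKM. In all 3 the 2 groups overlapped. The rule accepts only rows within 2-fold in mean level, which favours overlap, so no conclusion is drawn from it. *Ctrl* had 64 reads outside PDX1 P33T replicate 2 and met the read minimum only through that library. Its row was thus chosen with PDX1 P33T replicate 2 included. Without that library the PDX1 P33T mean of *Ctrl* was 0.486 FPKM, against 0.976 FPKM in wild-type. Wild-type replicate 2 held the highest value of *Cela1*, *Ctrl* and *Cpb1* and the lowest of *Krt7*, *Epcam* and *Spp1*. For *Clps* the highest wild-type value was in replicate 3, 5.25 FPKM against 4.29 in replicate 2. The share of all genes with their highest or lowest wild-type value in replicate 2 is not given, so this is a description only. For the other 22 measured members no wild-type value is given.

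**Figure D4:**
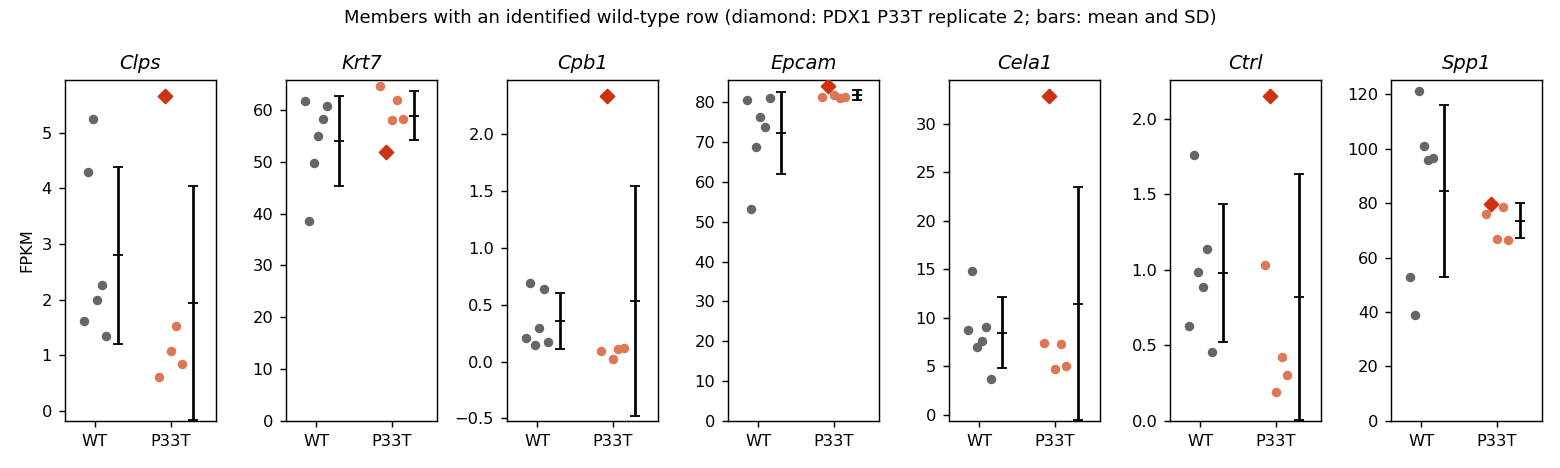
FPKM of 7 members in the 6 wild-type (WT, grey) and 5 PDX1 P33T (P33T, orange) libraries, with the mean and SD beside each group and PDX1 P33T replicate 2 as a red diamond. The diamond is the highest PDX1 P33T value for *Clps*, *Cpb1*, *Cela1*, *Ctrl*, *Epcam* and *Spp1* and the lowest for *Krt7*.

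Of the further exocrine genes, 2 acinar and 11 ductal genes had a wild-type row under the main rule. *Pigr*, the receptor that carries immunoglobulin across epithelia, was called higher in PDX1 P33T and no other gene of these 13 was called. It stood at 2.15, 1.91, 2.59, 1.73, 2.17 and 1.58 FPKM in wild-type and at 5.89, 4.02, 5.26, 5.29 and 5.3 FPKM in PDX1 P33T, without overlap. The log2 difference was 1.31 ± 0.13 (limma adjusted p = 0.00195; exact permutation p = 0.00216). *Pigr* was lowest in PDX1 P33T replicate 2, and without that library the difference was 1.4 ± 0.12 (limma adjusted p = 0.00241). With the replicate number of the titles as a block it was 1.25 (adjusted p = 0.107). The median log2 difference was -0.05 for the 11 ductal genes and -0.06 for all genes in the fit.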

How the data were processed

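Whole-islet RNA of 6 wild-type and 5 PDX1 P33T libraries was analysed. The authors aligned and counted the reads and deposited FPKM per gene, keeping genes with a value in enough replicates of one condition. The submitters' processing notes name fastp 0.23.1, HISAT2 2.0.5, featureCounts 1.5.0-p3, DESeq2 1.20.0 and GRCm39. For the counting, the strand setting is not given in the sources used here.

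Deposited FPKM were whole multiples of what 1 read is worth, so that library totals, gene lengths and reads were recovered from them. Most wild-type values stood on other genes' rows. They were put back by the wild-type reads of the part of a supplementary table held here (1711 genes), or by equal length and a level within 4-fold where nothing else of equal length lay within 16-fold (3054 genes). Genes and rows with under 100 reads in total were not paired by length and level. Checked on genes with known rows, the main rule was right for 402 of 402. The looser rule required nothing else within 4-fold and was right for 642 of 642, and it gave 1 gene a row that belonged to another gene.

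limma 3.58.1 (R 4.3.3; trend and robust) was fitted to log2(FPKM + 0.1) of 4726 genes with Benjamini-Hochberg adjustment over 19329 gene IDs. The call threshold was 0.05 for the adjusted p, with a minimum change of 1.5-fold. On simulated data with 200 changed genes among 4726, 91.5% of 2-fold changes were recovered. The simulation left genes of low mean FPKM out of the changed set and gave all genes the same length and dispersion. That share does not apply to low and uneven genes such as *Clps* and *Cpb1*. An exact permutation test (two-sided, 462 arrangements) was run for each single gene. Python 3.11.15, pandas 2.3.3, scipy 1.17.1, biopython 1.88 and matplotlib 3.10.9 were used.

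The members, their roles and the lists were chosen with earlier results of these data known. Named with values in each library were, per role, up to 4 members of highest mean FPKM, the member with the widest range, any called or non-overlapping member, and of the further exocrine genes the 5 of highest mean and any called. *Tff2*, *Klk1*, *Rab3d*, *2210010C04Rik* and *Amy2a1* fall outside that rule and were named after their values were seen.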

Additional observations from a re-analysis of the deposited data

Results flagged for a closer look

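In 14 of the 29 measured members and in the enzyme sum, 1 library of the 5 PDX1 P33T libraries lay far from the rest by Dixon's test, and each time it was replicate 2 on the high side. In all, 37 groups were examined. They share the same libraries, and the enzyme sum is made of members, so the marks are not independent. Their count therefore cannot be set against the 1 in 20 at which a single group is marked by chance. The outlying values were 18.5 FPKM for *Prss2*, 8.52 for *Try4*, 8.74 for *Try5*, 41.5 for *Ctrb1*, 32.9 for *Cela1*, 7.51 for *Cela2a*, 11.2 for *Cela3b*, 2.7 for *Cpa1* and 2.34 for *Cpb1*. They were 1.78 for *Pnliprp1*, 0.981 for *Cel*, 5.66 for *Clps*, 2.33 for *Reg1* and 84.1 for *Epcam*, the last only 1.03-fold above the next library. The enzyme sum was 150.1 FPKM. No wild-type library was marked for the 7 members with an identified row.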

How the results depend on the processing

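No member was called in any of the 22 alternatives to the main fit. The main fit held only *Clps* and *Krt7* of the members, and the looser rule added *Cpb1* and *Epcam*. The result therefore does not speak to members outside the fits. The enzyme sum of the highest library over the median of the others was 7.36, and 6.24 to 6.98 with FPKM rescaled to a common sum, without the enzyme of highest level, or with reads in place of FPKM (the last added after seeing the data). It was 1.85 to 10.2 when each library was left out, the 1.85 without PDX1 P33T replicate 2. The difference of *Cpb1* reversed to 0.02 with a pseudocount of 1 (-0.44 as reported) and was -0.94 with 0.01, and that of *Clps* was -0.49 with a pseudocount of 1 (-0.79 as reported). The cause was not tested. Leaving out each library gave -1.28 to -0.52 for *Clps*, -1.19 to -0.1 for *Cpb1*, 0.05 to 0.18 for *Krt7* and 0.11 to 0.23 for *Epcam*. Replicate numbers did not pair the libraries: the correlation of same-numbered deviations was -0.603 to 0.106 by titles and no library correlated best with its own number. With the replicate block by titles *Clps* was at -0.95 and *Krt7* at 0.18. Beyond *Pigr*, the block changed no call described here. Depth limits genes with under 100 reads, *Amy2a5*, *Pla2g1b*, *Car2*, *Cftr*, *Cel*, *Reg1* and *Sycn*.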
